A study of Mus musculus with 4 samples.

Results

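The T cell development genes described here are 10 genes, Rag1, Rag2, Dntt, Ptcra, Cd4, Cd8a, Cd8b1, Bcl11b, Satb1 and Themis, chosen by symbol from the 32285 genes of the matrices. They were followed in cells of the mouse thyroid by droplet-based single-cell RNA sequencing, in which each captured RNA molecule is counted once as a unique molecular identifier (UMI). The series holds 4 libraries, labelled postnatal day 5, 10, 20 and 30, and each was made from the glands of 10 pooled C57 mice (C57BL/6 in the study's methods), for which the labels give no genetic change and no treatment. There was 1 library per age, so no difference between ages could be tested, and the intervals given below are 95% exact Poisson or binomial intervals that cover counting error only. The genes were chosen because their levels and co-detection in T lineage cells of these same libraries were known, so those levels are given as a description.

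Developing T cells cut and rejoin the gene segments of their receptor. Rag1 and Rag2 encode the recombinase that cuts them, and Dntt encodes terminal deoxynucleotidyl transferase, which adds untemplated bases at the joints. Ptcra encodes the invariant chain that pairs with a newly made beta chain as the pre-T cell receptor. Thymocytes then carry the coreceptors CD4 and CD8 together, the double-positive stage, and keep one of them when they mature. Bcl11b and Satb1 are nuclear factors of T cell commitment and thymocyte chromatin, and Themis acts in receptor signalling during selection. The thyroid lies close to the thymus and parathyroid glands, and T cell development normally takes place in the thymus.

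The libraries held 54921806 to 89039113 UMIs, and 23114 cells were kept, 11210, 3929, 5076 and 2899 of the day 5, 10, 20 and 30 libraries, as labelled. T lineage cells were barcodes with 3 or more UMIs of Cd3d, Cd3g, Trbc1 and Trbc2 together. They numbered 954, 348, 3715 and 1193, or 8.51%, 8.86%, 73.2% and 41.2% of the cells, with medians of 2684, 3728, 2413 and 2473 UMIs. B cells, a lymphoid class used for comparison, numbered 243, 293, 49 and 203. H19, an imprinted gene of fetal growth that normally declines after birth, stood at 61.5, 498, 68.4 and 1858 CPM (the UMIs of a gene scaled to 1000000 UMIs of the class) in fibroblasts of these libraries, an order that goes against the labels. The authors' table of cells numbers the libraries otherwise than by age, with 1, 2, 3 and 4 for those labelled day 30, 10, 20 and 5. Their methods describe more cells for day 30 than for day 5, whereas the matrices hold more for day 5. With the labels day 5 and day 30 exchanged, the numbers would run by age and H19 would fall in that order. Whether labels were exchanged cannot be told from these files. The age of a library is therefore used only as its label, and values of the 4 libraries are given in the order day 5, 10, 20 and 30. Between the day 10, 20 and 30 libraries, 97.4% to 98.8% of cell barcodes also appeared in the matrix of the other library, mostly with few UMIs. In each pair of the 4 libraries 12 to 30 barcodes were cells of both. Only 1, 4, 22 and 7 T lineage cells shared a barcode with a cell of another library, and without them all 40 levels stayed within their intervals. This left in place the far more frequent barcodes with few UMIs in another matrix, whose part in the levels was not tested.

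The genes lie on chromosomes 2, 6, 10, 12, 17 and 19 of GRCm38. Rag1 (chr2:101638282-101649501, minus strand) and Rag2 (chr2:101624718-101632529, plus strand) face each other with 5752 bases between them. Cd8b1 (chr6:71322788-71337494) and Cd8a (chr6:71373427-71379173) lie in a row on the plus strand, 35932 bases apart. Dntt lies at chr19:41029275-41059525 and Ptcra at chr17:46755663-46763712. Cd4 lies at chr6:124864692-124888221, Bcl11b at chr12:107910403-108003602, Satb1 at chr17:51736187-51833290 and Themis at chr10:28668360-28883818. The annotated gene B230118H07Rik overlaps Rag1 on the same strand and Rag2 on the opposite one. Its own level in T lineage cells was 7.68, 5.06, 32.7 and 39.5 CPM in the 4 libraries, and reads in the overlap may have been counted for neither gene.

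The 250 bases before the start of Rag1, Rag2, Dntt and Ptcra are shown because these 4 genes were at or near 0 in T lineage cells of the day 5 and day 10 libraries. They were taken from RefSeq on GRCm38.p6, in which 8 of the 10 genes had an entry. Capitals mark the E box CANNTG, the letters that E proteins such as the product of Tcf3 recognise. The windows are chr2:101649533-101649782 for Rag1 (minus strand), chr2:101624462-101624711 for Rag2 (plus strand), chr19:41029025-41029274 for Dntt (plus strand) and chr17:46763713-46763962 for Ptcra (minus strand).
Rag1: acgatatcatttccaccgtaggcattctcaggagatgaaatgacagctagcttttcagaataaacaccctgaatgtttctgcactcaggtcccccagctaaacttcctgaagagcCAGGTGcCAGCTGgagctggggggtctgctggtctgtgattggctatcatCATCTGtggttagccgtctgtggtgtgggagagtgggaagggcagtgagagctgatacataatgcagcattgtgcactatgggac
Rag2: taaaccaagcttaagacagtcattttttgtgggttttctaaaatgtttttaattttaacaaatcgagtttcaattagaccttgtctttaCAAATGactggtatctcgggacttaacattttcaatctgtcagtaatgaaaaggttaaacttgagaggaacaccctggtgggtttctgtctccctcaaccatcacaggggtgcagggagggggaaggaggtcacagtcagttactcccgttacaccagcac
Dntt: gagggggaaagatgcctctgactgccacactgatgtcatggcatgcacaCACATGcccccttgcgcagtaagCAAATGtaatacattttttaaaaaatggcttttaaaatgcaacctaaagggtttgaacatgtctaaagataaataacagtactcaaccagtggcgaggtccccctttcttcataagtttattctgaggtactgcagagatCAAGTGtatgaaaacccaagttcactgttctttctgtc
Ptcra: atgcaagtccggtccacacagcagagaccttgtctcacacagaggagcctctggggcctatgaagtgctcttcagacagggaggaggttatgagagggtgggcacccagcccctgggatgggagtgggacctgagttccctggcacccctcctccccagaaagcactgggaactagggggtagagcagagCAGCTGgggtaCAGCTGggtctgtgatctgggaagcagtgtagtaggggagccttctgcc
Rag1 and Dntt each held 3 E boxes, Ptcra held 2 with the same letters, CAGCTG, and Rag2 held 1. Of 32851 promoters of the same length, 66.2% held at least 1, so it is common in windows of this length. The letters TGTGGT, read on both strands for Runx factors, were found at 81 and 67 bases before the start of Rag1, the first overlapping the E box at 85, and in 14% of all promoters. AGATAA, read for GATA factors, was found 112 bases before the start of Dntt and in 9.99% of all promoters. These matches are a description of the letters and not of binding.

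Rag1 and Dntt, genes of recombination, separated the libraries most plainly. Rag1 had 0 UMIs among the 2864211 of T lineage cells in the day 5 library and 2 UMIs in that of day 10, against 8966 and 3170 in those of day 20 and day 30. This gave 0, 1.45, 755 (739 to 770) and 750 (725 to 777) CPM. The day 20 library was at least 721-fold above that of day 5, taking 3 UMIs per library as the limit of a count of 0, and 522-fold (144 to 4310) above that of day 10. Rag2, the partner of Rag1, had no UMI in the day 5 and day 10 libraries and 199 and 130 in the others, or 16.8 (14.5 to 19.2) and 30.8 (25.7 to 36.5) CPM. Against the day 10 library these levels were at least 7.72-fold and 14.2-fold higher. Dntt had 2, 3, 4841 and 3195 UMIs, or 0.698, 2.17, 407 and 756 CPM. In T lineage cells each of these 3 genes was thus nearly confined to the day 20 and day 30 libraries.

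**Figure D1:**
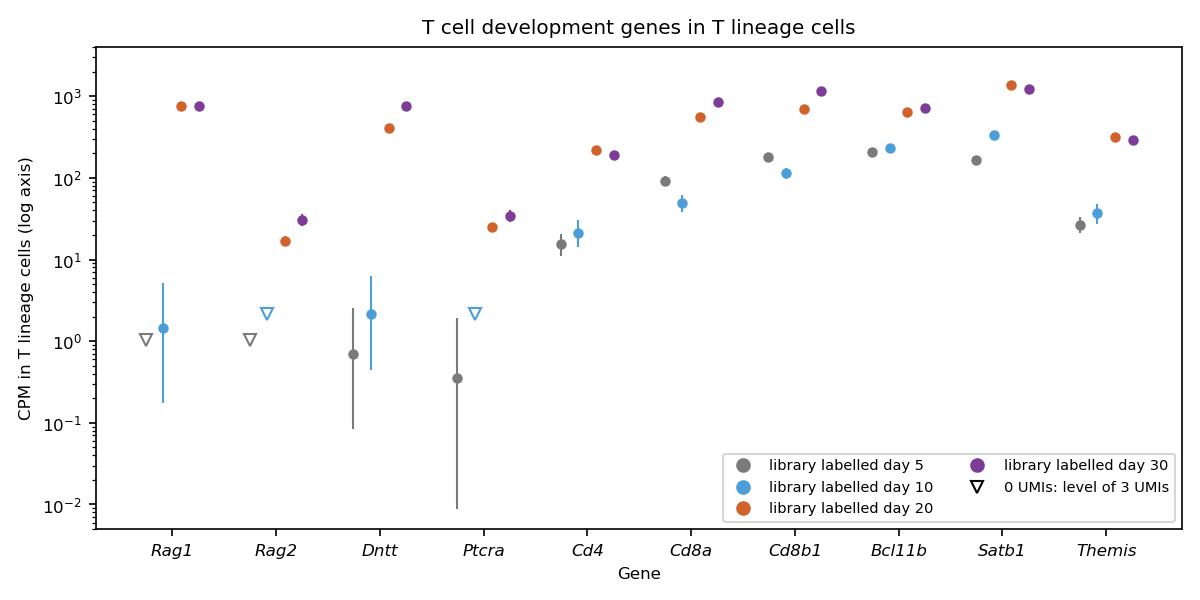
Level of each of the 10 genes in T lineage cells, in CPM on a log axis, by library as labelled; points are summed UMIs and bars are exact 95% Poisson intervals of 1 library each, and open triangles mark the level of 3 UMIs where the count was 0. Rag1 and Rag2 sit at or near this limit in the day 5 and day 10 libraries, while Bcl11b lies above 200 CPM in all 4.

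The pre-T cell receptor chain and the coreceptors were also higher in the day 20 and day 30 libraries than in the other two. Ptcra had 1 and 0 UMIs in T lineage cells of the day 5 and day 10 libraries, and 293 and 145 in those of day 20 and day 30, or 24.7 (21.9 to 27.7) and 34.3 (29.0 to 40.4) CPM. Cd4 stood at 15.4, 21.0, 216 and 188 CPM, 12.2-fold (9.03 to 17.0) higher in the day 30 library than in the day 5 library. Cd8a and Cd8b1, the 2 chains of CD8, were already present in the day 5 library. Cd8a had 92.2, 49.2, 554 and 849 CPM, and Cd8b1 had 181, 114, 699 and 1156 CPM. Between the day 10 and day 5 libraries the ratio was 0.533 (0.402 to 0.699) for Cd8a and 0.627 (0.521 to 0.750) for Cd8b1, but without barcodes that held markers of a second class it was 0.922 (0.684 to 1.23) and 0.967 (0.787 to 1.18). Of all genes 14% stood higher and 16.5% lower in the day 10 library beyond counting error.

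Bcl11b, Satb1 and Themis, which mature T cells also use, were found in every library. Bcl11b had 205, 234, 632 and 706 CPM in the 4 libraries and showed the smallest contrast of the 10 between the day 20 and day 5 libraries, 3.08-fold (2.83 to 3.36). Satb1 had 164, 332, 1380 and 1232 CPM, and was also 2.02-fold (1.77 to 2.31) higher in the day 10 than in the day 5 library. Themis had 26.5, 36.9, 312 and 290 CPM.

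The day 20 and day 30 libraries were not alike in all members. Rag1 did not differ between them beyond counting error, with a ratio of day 30 to day 20 of 0.994 (0.955 to 1.04). Dntt was 1.86-fold (1.77 to 1.94) and Rag2 1.84-fold (1.46 to 2.30) higher in the day 30 library, and Cd8b1, Cd8a and Ptcra were 1.65-fold (1.60 to 1.71), 1.53-fold (1.47 to 1.60) and 1.39-fold (1.13 to 1.70) higher. Bcl11b was 1.12-fold (1.07 to 1.17) higher. Cd4, Satb1 and Themis were lower there, at 0.868-fold (0.801 to 0.940), 0.893-fold (0.865 to 0.921) and 0.930-fold (0.872 to 0.993). Counting error is small at this depth, and of all 7673 genes with a mean of at least 10 CPM 25.6% stood higher and 28.7% lower in the day 30 library by the same rule, so nothing particular to the members is read from these differences. Several also depended on the upper limit of 10000 UMIs per cell. Without it the ratio was 1.24 (1.19 to 1.29) for Rag1, 1.08 (1.00 to 1.16) for Cd4, 1.03 (0.997 to 1.05) for Satb1, 1.08 (1.02 to 1.15) for Themis and 1.09 (0.956 to 1.25) for Ptcra. Cd4, Satb1 and Themis were then no longer lower, while Rag2, Dntt, Cd8a, Cd8b1 and Bcl11b were still higher. The share of cells in division also differed between these libraries, as given below, and its part in these ratios was not tested.

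All 10 members were at least 2-fold higher in both the day 20 and day 30 libraries than in either of the other libraries. Over the 7673 genes with a mean of at least 10 CPM, 653 or 8.51% met the same rule upward and 436 or 5.68% downward. The members were chosen for this contrast, so nothing is read from their count. Of other genes of thymocyte stages, 9 of 12 listed genes of the immature and double-positive stage met the rule upward and 0 downward. Of 12 lineage and identity factors at this level 3 were higher and 1 lower, of 14 receptor signalling genes 3 and 0, of 8 early progenitor and Notch genes 1 and 3, and of 5 genes of the selection response 1 and 2. Among the immature and double-positive genes Ccr9, a chemokine receptor of thymocytes, had 5.94, 8.68, 821 and 624 CPM, and Arpp21 had 0.349, 1.45, 364 and 409 CPM. Of 14 genes of maturation and egress, 0 were higher and 7 lower. The list counts were not repeated without barcodes of a second class, which were more frequent in the day 5 and day 10 libraries, as given below. Il7r, the receptor of the survival cytokine interleukin 7, had 748, 576, 109.6 and 85.7 CPM, and B2m, the light chain of class I molecules, had 1447, 1500, 618 and 456 CPM. Of the 9 genes of the end joining list at this level, 4 were higher, including the chromatin protein Hmgb1, which is not itself an end joining factor. Lig4, the ligase that seals the joints, was also among them, at 3.14, 4.34, 68.9 and 60.4 CPM. Of 6 listed genes of the gamma delta receptor and its cells, 5 reached this level and all 5 were lower. Trdc, the delta constant region, had 1030, 380, 97.3 and 119 CPM. The median log2 difference between the 2 pairs of libraries was 2.33 for the immature and double-positive list, 1.81 for end joining, 0.86 for lineage and identity factors, 0.71 for receptor signalling, -0.39 for early progenitor and Notch genes, -0.75 for the selection response and -1.51 for maturation and egress, against 0.29 over all genes tested. These lists were drawn up with earlier results of these data known.

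The upper limit of 10000 UMIs per cell bears on these levels. Without it T lineage cells numbered 4287 and 1355 in the day 20 and day 30 libraries. In the day 20 library Rag1 was then at 423 in place of 755 CPM, Cd4 at 122 in place of 216, Themis at 193 in place of 312, Satb1 at 900 in place of 1380 and Cd8b1 at 460 in place of 699. Ptcra was higher without the limit, at 39.1 in place of 24.7 CPM. All 10 genes were still at least 2-fold higher in both libraries. The T lineage rule was a threshold on UMIs, and cells just under it in the day 20 library, with 2 UMIs of the 4 markers, had 34.6 CPM of Rag1 over 57 cells, against 12.4 CPM over 16 cells with 3 UMIs. In the day 30 library these values were 0 CPM over 9 cells and 75.2 CPM over 5.

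After each cell was thinned to 1000 UMIs, so that cells of different depth could be compared, 49.8% (48.2% to 51.4%) and 52.7% (49.9% to 55.6%) of T lineage cells of the day 20 and day 30 libraries had a Rag1 UMI. Unthinned shares were 65.2% and 74.4%. In the day 5 and day 10 libraries the thinned shares were 0% of 944 cells, which allows up to 0.390%, and 0.287% of 348. In endothelial cells, which should lack the gene, 0.293% and 0% had a Rag1 UMI after thinning in the day 20 and day 30 libraries, at medians of 3179 and 5612.5 UMIs before it, and no other member exceeded 1.17% there. Dntt was seen in 31.7% and 46.7% of T lineage cells of the day 20 and day 30 libraries, Satb1 in 72.2% and 70.4%, Themis in 30.3% and 28.6%, Bcl11b in 47.9% and 51.1%, and Ptcra in 2.50% and 2.95%. For every member both of these shares were above those of the day 5 and day 10 libraries.

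Over all libraries, of which those of day 20 and day 30 held most of the UMIs, T lineage cells held 98.7% of the Rag1 UMIs, 98.8% of Rag2, 99.6% of Dntt and Cd8b1, 98.5% of Cd8a, 97.6% of Themis, 97.5% of Bcl11b, 94.3% of Satb1, 91.5% of Cd4 and 89.4% of Ptcra. In the day 5 and day 10 libraries taken alone they held 42.7% and 18.5% of Cd4, 55.1% and 56.6% of Satb1, 81.9% and 89.3% of Bcl11b, 3.33% and 0% of Ptcra and, for day 10, 6.67% of Rag1. Macrophages held Cd4 at 14.5 to 27.7 CPM in the 4 libraries, which in the day 5 and day 10 libraries was close to the level in T lineage cells. ILC2, innate lymphoid cells of type 2, held Bcl11b at 223 to 525 CPM, from 94, 28, 15 and 2 cells. Of the 30 Ptcra UMIs of the day 5 library, 29 lay outside T lineage and B cells. The 220 cells of the day 20 library that no marker list claimed, with a median of 680 UMIs, had 276 CPM of Rag1 and 999 CPM of Satb1. Free RNA, from droplets with 10 to 100 UMIs, held 0, 0, 84.1 and 19.5 CPM of Rag1, and 8.96, 6.10, 251 and 44.3 CPM of Satb1, in the 4 libraries. T lineage cells stood above free RNA for every member in the day 20 and day 30 libraries. Of the T lineage cells themselves, 9.75%, 11.8%, 2.99% and 4.86% also had 3 or more UMIs of the natural killer list and 17.4%, 34.2%, 3.88% and 5.03% had 3 or more of the ILC2 list, which holds Gata3 and Rora that T cells also use. Leaving out all barcodes with a second class moved no level of the day 20 and day 30 libraries by more than 1.11-fold. In the day 10 library it left 184 of 348 cells and put Cd8a at 97.0 in place of 49.2 CPM, Cd4 at 38.2 in place of 21.0, Themis at 61.7 in place of 36.9 and Satb1 at 522 in place of 332 CPM. In that of day 5 it left 626 of 954 cells and put Cd4 at 20.9 in place of 15.4 CPM.

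**Figure D2:**
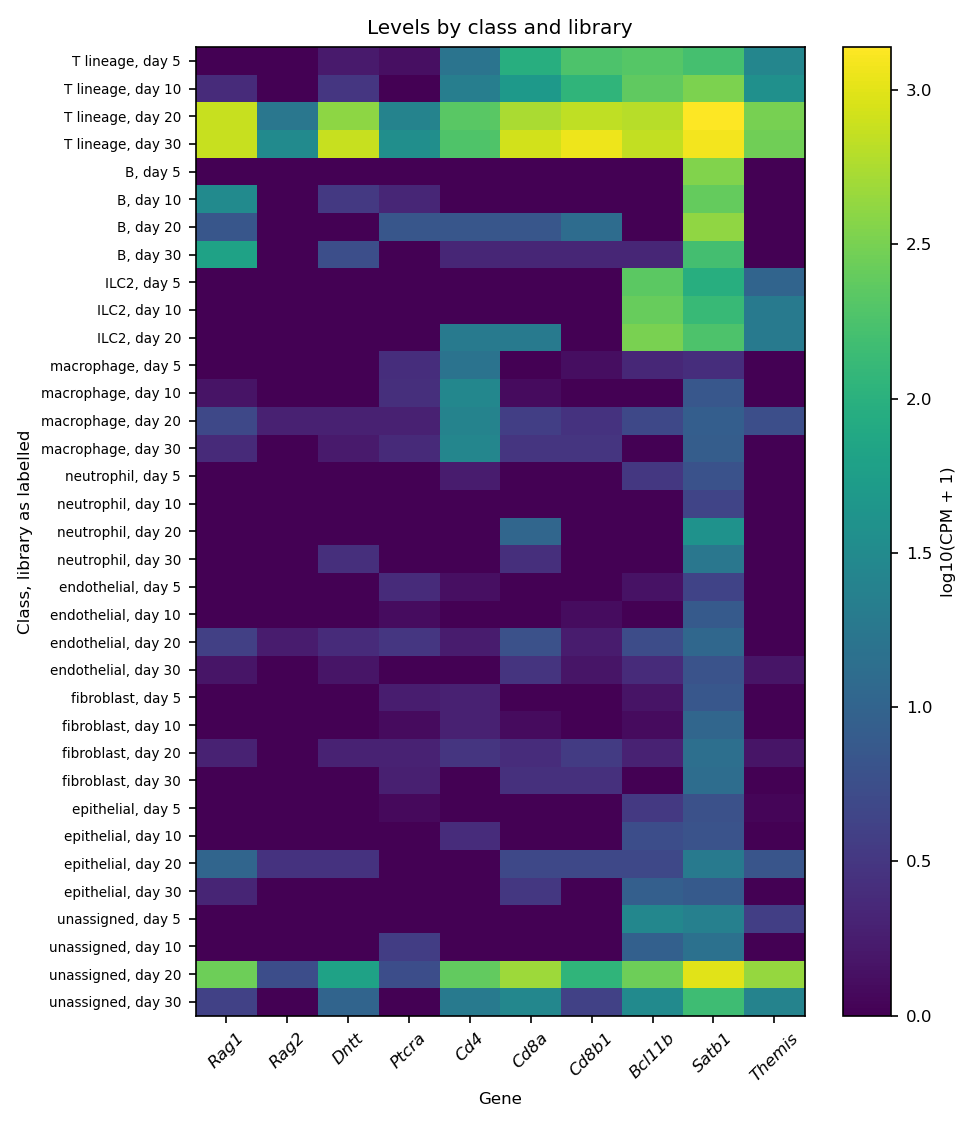
Level of the 10 genes by cell class and library (rows), drawn in colour as log10(CPM + 1) of summed UMIs, with classes of very few cells left out. The T lineage rows of the day 20 and day 30 libraries are filled for every gene. The cells of the day 20 library that no list claimed show most of the genes, but Rag2 and Ptcra rest on 1 UMI each there. B cells show Satb1 and a little Rag1, ILC2 show Bcl11b, and macrophages show Cd4.

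B cells rearrange their receptor with the same recombinase, and Rag1 was also seen there. It had 0, 26, 1 and 54 UMIs in B cells of the 4 libraries, or 0, 30.4, 5.91 and 64.0 CPM. In the day 10 library B cells thus held 26 of the 30 Rag1 UMIs of the whole library. Rag1 UMIs came from 12 B cells of the day 10 library and 23 of that of day 30, and all 12 and all 23 also had UMIs of the pre-B genes Vpreb1, Vpreb2, Vpreb3 or Igll1. The 1 B cell with Rag1 in the day 20 library had none of these. Of the other B cells 53.0% (47.0% to 59.0%) in the day 10 library had one, and 108 of 180 in that of day 30. In the B cells with Rag1 most of these UMIs were of Vpreb3, at 64 and 299 in the day 10 and day 30 libraries. Vpreb1 and Igll1 together had 11 and 15 UMIs there, and 1 and 88 in the B cells without Rag1. Dntt had 0, 2, 0 and 4 UMIs in B cells, and Rag2 had none. Satb1 was present in B cells of all libraries, at 347, 248, 420 and 159 CPM, and in the day 5 library it stood higher there than the 164 CPM of T lineage cells. Bcl11b, Themis and Cd8a had at most 1 UMI in the B cells of any library.

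T lineage cells were divided by the coreceptor UMIs left after thinning. Cells with both Cd4 and Cd8a or Cd8b1 UMIs, the pattern of the double-positive stage, made up 0%, 0%, 16.7% (15.5% to 17.9%) and 16.4% (14.4% to 18.7%) of T lineage cells in the 4 libraries. Cells with Cd8 UMIs alone made up 13.8%, 10.1%, 48.3% and 62.7%, cells with Cd4 UMIs alone 1.27%, 2.01%, 5.61% and 2.27%, and cells with neither 85.0%, 87.9%, 29.4% and 18.6%. With all UMIs of each cell, the share with both was 0%, 0.575%, 37.1% and 43.0%, so it depends on depth. The 0 of 944 cells of the day 5 library allows up to 0.390%.

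Rag1 was at its highest in the cells with both coreceptors. In the day 20 library it had 1433 CPM (1373 to 1495) in these cells, 1015 in cells with Cd8 alone, 685 in cells with Cd4 alone and 251 in cells with neither. In that of day 30 it had 1196 (1107 to 1290), 879, 558 and 211 CPM. Dntt followed the same order in the day 20 library, at 629, 574, 239 and 172 CPM, and in that of day 30 its levels of 949 CPM with both and 936 with Cd8 alone did not differ beyond their intervals. Themis had 509, 400, 244 and 158 CPM in the day 20 library. Satb1 had 1655 with both, 1713 with Cd4 alone and 1175 with neither. The cells with neither coreceptor were deeper, with medians of 3758.5 and 4411 UMIs against 2119 and 2217 in cells with both.

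**Figure D3:**
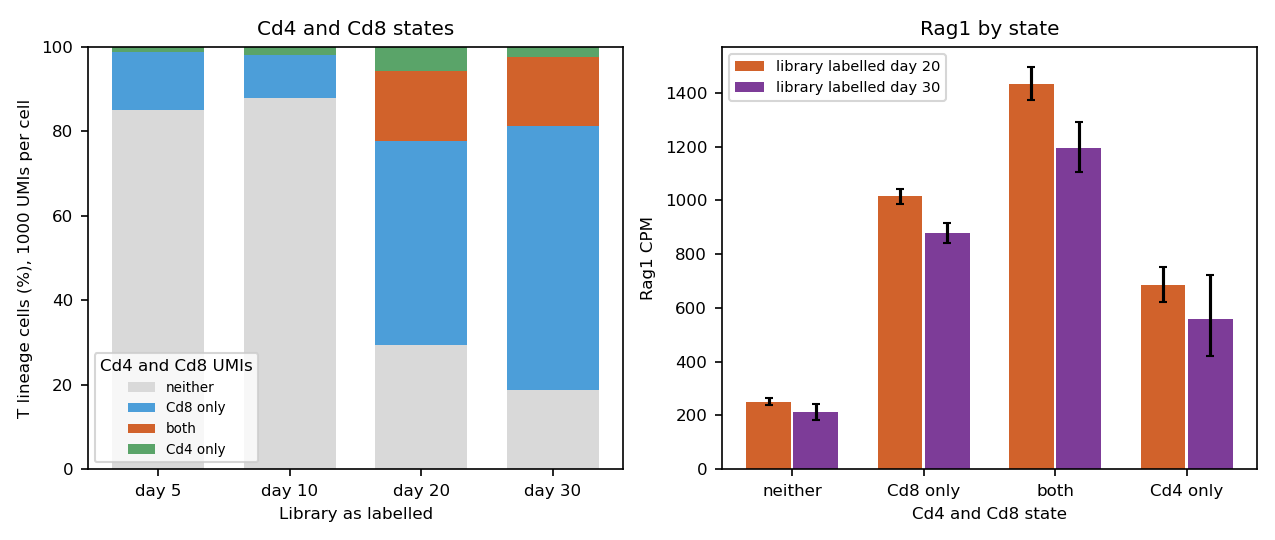
Left, share of T lineage cells (%, stacked) with Cd4 and Cd8 UMIs, Cd8 alone, Cd4 alone or neither after thinning to 1000 UMIs, by library. Right, Rag1 level (CPM with exact 95% intervals) in each state, highest in cells with both at 1433 and 1196 CPM in the day 20 and day 30 libraries.

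The members were often found in the same cells. After thinning, the median T lineage cell had UMIs of 0, 0, 4 and 4 of the 10 genes in the 4 libraries. Cells with 5 or more members made up 0%, 0%, 33.4% and 43.6%, and cells with none 60.1%, 53.4%, 5.61% and 5.98%. In B cells the median was 0 in every library. Of the 45 pairs of members, 40 were more often seen together than apart in both the day 20 and day 30 libraries, in the sense that a larger share of the cells with the first gene had the second than of the cells without it. The same held for 21.1% of the pairs of all 7673 genes, and since the members were chosen with their co-detection known, nothing is read from their count. In the day 20 library a Dntt UMI was seen in 43.1% of cells with Rag1 and 20.3% of cells without it, and in that of day 30 in 55.0% and 37.4%. Rag1 was seen in 64.7% of cells with Cd8b1 and 34.9% without it, and in 60.5% and 37.2% in the day 30 library. The 5 other pairs held Ptcra, with Rag1, Bcl11b or Satb1, or Rag2, with Cd4 or Themis. Rag1 was seen in 64.1% of cells with Ptcra and 49.4% without it in the day 20 library, but in 48.6% and 52.9% in that of day 30, where only 35 cells had a Ptcra UMI. Cd4 was seen there in 15.8% of the 38 cells with Rag2 and in 18.8% of those without it, and Themis in 26.3% and 28.6%. Cells with neither coreceptor and cells with both were pooled here, and the part of this mixture in the pair counts was not tested.

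Because all values above are shares of a cell's RNA, the levels were also set out by the UMI content of the cell, a division made after the data were seen. The 4 classes had medians of 1937, 3219, 6720 and 17783 UMIs in the day 20 library, with 2000, 1135, 600 and 525 cells, the last being those over 10000 UMIs. Rag1 was at 1367, 755, 199 and 93.7 CPM in these classes, and at 1371, 728, 413 and 160 CPM in the day 30 library. The smallest cells thus stood 14.6-fold (13.7 to 15.6) and 8.59-fold (7.71 to 9.59) above the largest. Cd4 followed Rag1 most closely, at 12.9-fold and 7.35-fold, and Themis came next at 7.12-fold and 6.21-fold. Dntt stood 1.60-fold (1.52 to 1.69) and 1.97-fold (1.80 to 2.16) higher in the smallest than in the largest cells, but in the day 30 library it was at 808 CPM in cells of 5000 to 10000 UMIs, above the 751 CPM of the smallest. Rag2 was likewise at 36.3 against 28.1 CPM there. Ptcra alone was higher in the largest cells than in the smallest, at 53.6 against 26.7 CPM in the day 20 library and 55.5 against 26.4 in that of day 30, or 2.01-fold (1.63 to 2.49) and 2.10-fold (1.42 to 3.21).

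Several other properties moved with UMI content. In the day 20 library cells in division made up 0.150%, 0.617%, 20.0% and 43.4% of the 4 classes, and in that of day 30 0.164%, 6.56%, 60.1% and 57.3%. Cells with both coreceptors made up 22.4%, 13.8%, 3.67% and 2.29% in the day 20 library. Barcodes with 3 or more UMIs of the marker list of another class made up 1.65%, 9.69%, 25.5% and 59.2% there. Unlike the other shares this one was counted without thinning, so larger cells reach the fixed limit of 3 UMIs more easily. The part of these barcodes in the differences between the classes was not tested.

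**Figure D4:**
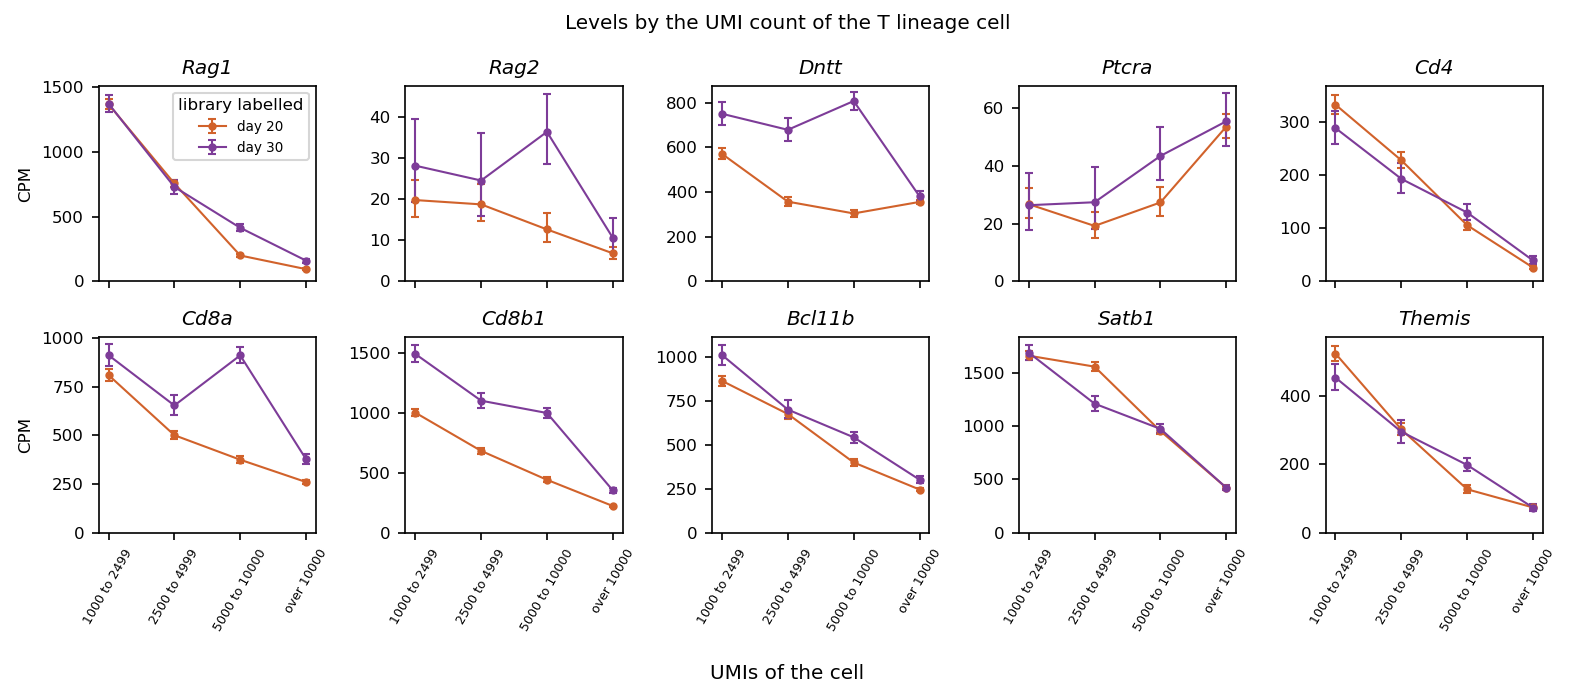
Level of each gene (CPM with exact 95% intervals) in T lineage cells of 4 classes of UMI content, for the day 20 and day 30 libraries. Rag1 is lower in each larger class, from 1367 to 93.7 CPM in the day 20 library, whereas Ptcra is highest in cells over 10000 UMIs, at 53.6 and 55.5 CPM.

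Division separates the stages of thymocytes, since cells divide in a burst after the pre-T cell receptor forms and rest when they rearrange the alpha chain. Cells with 3 or more UMIs of 10 cell cycle genes, such as Mki67 and Top2a, after thinning made up 1.27%, 0.287%, 3.63% (3.05% to 4.29%) and 16.3% (14.2% to 18.5%) of T lineage cells in the 4 libraries. The choice of members did not use this division, so it was tested. Only the libraries labelled day 20, with 134 cycling cells, and day 30, with 193, had 20 cells in each state. UMIs were summed per library and state and tested with edgeR's quasi-likelihood test with library as the block, with Benjamini-Hochberg adjustment over 9457 genes, which leaves 1 residual degree of freedom. Of all genes tested 1860 or 19.7% rose and 1639 or 17.3% fell in cycling cells. The balance depended on the method, since the split was 849 to 457 with DESeq2, but 1706 to 2221 with library totals in place of TMM scaling and 1649 to 1901 with no filter on low genes.

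Of the 10 members, 5 rose and 2 fell in cycling cells, but the falls of Rag1 and Cd4 turned among cells of 5000 UMIs or more, as given below. Rag2 was at 38.5 CPM in cycling and 14.7 in other cells of the day 20 library, and at 55.4 and 19.1 in that of day 30, a log2 change of 1.56 (SE 0.23, edgeR adjusted p = 1.4e-05). Rag1, its partner in the recombinase, was at 400 against 787 CPM and at 512 against 862 CPM, a log2 change of -0.77 (SE 0.16, edgeR adjusted p = 6.2e-04). Dntt was at 774 against 374 and at 1005 against 642 CPM, a log2 change of 0.94 (SE 0.17, edgeR adjusted p = 1.1e-04). Ptcra was at 44.6 against 22.9 and at 47.9 against 28.1 CPM, a log2 change of 0.96 (SE 0.22, edgeR adjusted p = 0.0014). Cd8a was at 971 against 516 and at 1194 against 689 CPM, a log2 change of 0.95 (SE 0.16, edgeR adjusted p = 7.4e-05).

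The remaining coreceptor changes were smaller. Cd8b1 rose by 0.47 on the log2 scale (SE 0.17, edgeR adjusted p = 0.039), and Cd4 fell by 0.40 (SE 0.15, edgeR adjusted p = 0.041). Themis at -0.37 (edgeR adjusted p = 0.070), Satb1 at -0.20 (0.38) and Bcl11b at -0.08 (0.74) did not pass the threshold. Cycling cells had medians of 7593.5 and 7031 UMIs against 2383 and 2301.5 in the others. With 1000 UMIs of every cell summed in place of all UMIs, the log2 change was -1.12 for Rag1, 1.81 for Rag2, 0.79 for Dntt, 0.53 for Cd8a and 1.07 for Ptcra, of which only that of Ptcra missed the threshold. This evens out the UMIs counted per cell, but not the difference in levels between small and large cells.

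To compare cells of like UMI content, the fit was repeated with cells of 5000 to 10000 UMIs alone, a comparison added after the data were seen, with 123 cycling and 483 other cells in the day 20 library and 172 and 116 in that of day 30. Rag1 then rose in cycling cells by 1.00 on the log2 scale (edgeR adjusted p = 0.0091), the reverse of its direction over all cells. In this range of UMIs, with doublets scored without the upper limit, it was at 386 CPM in cycling and 147 in other cells of the day 20 library, and at 499.8 and 275 in that of day 30. Rag2 rose by 2.20, Cd8a by 1.63, Dntt by 1.43, Cd8b1 by 1.26, Themis by 0.88 and Bcl11b by 0.60. Cd4 at 0.63 (edgeR adjusted p = 0.061), Ptcra at 0.72 (0.087) and Satb1 at 0.29 (0.37) did not pass. In cells of 2500 or more and under 5000 UMIs, of which only 7 and 20 were cycling, the ratio of cycling to other cells was 0.545 (0.272 to 0.977) for Rag1 in the day 20 library and 0.968 (0.725 to 1.27) in that of day 30. Of cells over 10000 UMIs, which the upper limit left out, 228 and 82 were cycling. The ratio there was 1.83 (1.63 to 2.06) and 2.49 (2.01 to 3.10) for Rag1, 2.09 and 2.37 for Cd4 and 1.92 and 1.93 for Ptcra. Genes that did not pass over all cells were higher there too, Bcl11b at 1.90 and 2.22, Satb1 at 1.65 and 3.27 and Themis at 1.62 and 1.96. Of the cells over 10000 UMIs 59.2% and 62.2% held 3 or more UMIs of another class list. The part of these barcodes in the ratios was not tested. No single direction of Rag1 with division is therefore read from these data, whereas Rag2, Dntt and Cd8a rose both over all cells and among the large ones.

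Within cells with Cd8a or Cd8b1 UMIs, a comparison added after the data were seen, it was -1.10 for Rag1, 1.39 for Rag2 and 0.54 for Dntt. Rag2 passed under every alternative tried, as did Cd8a, although one of these chose its cells by Cd8a or Cd8b1 UMIs. The calls of Cd4, Cd8b1, Ptcra, Dntt and Rag1 were each lost under at least 1. That of Rag1 was lost once the 12 cycling cells of the day 5 library were added, that of Dntt without library as the block, and that of Ptcra with DESeq2, with thinned sums, within cells with Cd8 UMIs and within large cells. Themis, in turn, passed as lower under 5 alternatives and as higher within large cells. The alternatives gave edgeR or DESeq2 adjusted p from 1.1e-07 to 0.063 for Rag1 and from 2.9e-09 to 0.051 for Dntt. Those of Ptcra ranged from 0.0011 to 0.161, of Cd8b1 from 0.0045 to 0.802 and of Cd4 from 0.0035 to 0.351.

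**Figure D5:**
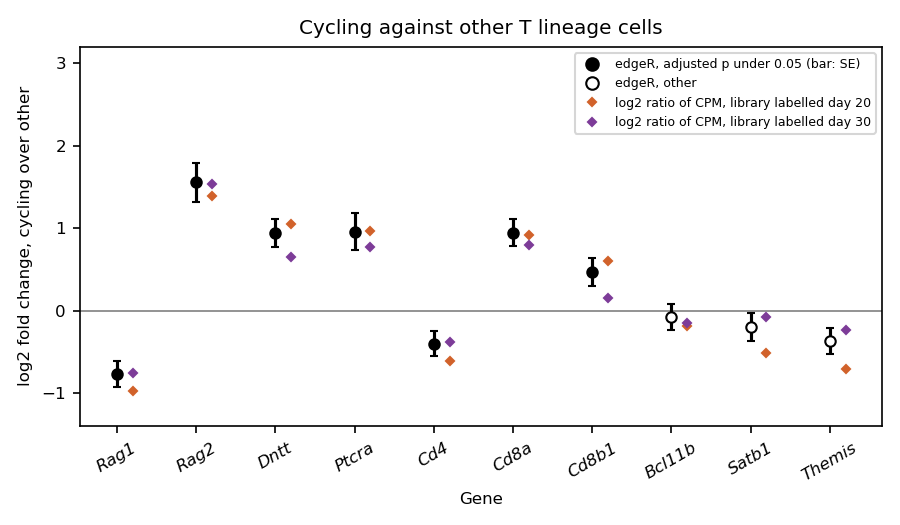
Log2 change between cycling and other T lineage cells for the 10 genes (points, edgeR estimate; bars, 1 SE; diamonds, the ratio in each of the day 20 and day 30 libraries). Rag2 lies highest at 1.56 and Rag1 lowest at -0.77 over cells of every UMI content, whereas Rag1 was at 1.00 among cells of 5000 to 10000 UMIs alone.

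The other genes of the pathway were read from the same fit, in which 19.7% of all genes rose and 17.3% fell. Of 14 genes of maturation and egress, 0 rose and 12 fell, with a median log2 change of -2.46 against -0.04 over all genes tested. Il7r fell by 6.44, Ms4a4b by 3.94 and Itgb7, an integrin of gut homing, by 3.84. In cycling cells of the day 20 and day 30 libraries Il7r was at 3.04 and 0 CPM and Itgb7 at 9.13 and 0 CPM. The size of these falls thus rests on few UMIs. Of 14 receptor signalling genes 0 rose and 9 fell, among them the kinase Fyn at -1.53 and the alpha chain Trac at -1.18. Of 12 immature and double-positive stage genes 2 rose and 2 fell. E2f2, a factor of cell cycle entry, rose by 2.82 and Bcl2l1, a survival gene, by 0.49, while Cd28 fell by 0.97 and Ccr9 by 0.82.

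Of 12 tested lineage and identity factors 2 rose and 6 fell. Id3 rose by 1.00 and Tcf3, which encodes an E protein, by 0.51, while Tox fell by 1.40, Id2 by 1.20 and Runx3 by 0.87. Of 8 early progenitor and Notch genes Notch1 rose by 0.45, and Il2ra fell by 3.48, Kit by 2.38 and Cd44 by 1.26. In cycling cells of the day 20 and day 30 libraries Il2ra was at 0 and 4.49 CPM and Kit at 4.06 and 1.496 CPM. The size of both falls thus rests on few UMIs. Kit was at 6.35 and 22.55 CPM in other cells, so its contrast was small in the day 20 library. Of 11 genes on the end joining list 3 rose and Lig4 fell by 0.88. The Ku subunit Xrcc6 rose by 0.87. The others were the chromatin proteins Hmgb2, by 3.32, and Hmgb1, by 1.82, which are not themselves end joining factors. Of 6 genes of the selection response 0 rose and 5 fell, among them Pdcd1 by 1.86, Ikzf2 by 1.43 and Bcl2l11, which promotes cell death, by 0.78. Pdcd1 was near the floor, at 0 and 3.74 CPM in cycling cells. These named genes had edgeR adjusted p between 1.4e-11 and 0.038. Among cells of 5000 to 10000 UMIs Ccr9 was at 0.54 and Lig4 at 0.41, neither past the threshold, so neither was lower there. The call of Bcl2l1 was lost under every alternative but this one, and that of Notch1 under all but the one that left out barcodes of a second class. DESeq2 also ended the calls of Il2ra, Kit, Cd44, Lig4, Tcf3, Runx3, Itgb7 and Pdcd1.

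Cells with both coreceptors after thinning were then compared with cells that kept UMIs of one of them only. These were 615 against 1988 cells in the day 20 library and 195 against 771 in that of day 30. Over all UMIs, the cells with Cd8 alone after thinning still held Cd4 at 141 and 152 CPM in these libraries. The second group thus included cells with UMIs of both coreceptors before thinning. In the same fit over 9344 genes 88 or 0.942% rose and 283 or 3.03% fell in cells with both. With library totals in place of TMM scaling the split was 178 to 218. The members set the states or were chosen for their co-detection, so their values are a description. Rag1 was at 1433 against 978 CPM in the day 20 library and at 1196 against 866 in that of day 30, and Themis at 509 against 382 and at 369 against 334. Rag2 was at 21.6 against 23.9 and at 26.8 against 39.8 CPM. The values in cells with both rest on 32 and 15 UMIs, and their intervals of 14.8 to 30.5 and 15.0 to 44.3 include those of the other cells.

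Among pathway genes that were not members, 12 of 14 maturation and egress genes fell and 0 rose, with a median log2 change of -1.27 against 0.01 over all genes tested. Il7r fell by 3.57, Ccr7, the receptor that guides mature cells, by 3.44 and Ms4a4b by 2.60. In cells with both coreceptors Il7r was at 4.05 and 0 CPM and Ccr7 at 5.40 and 0 CPM in the day 20 and day 30 libraries. The size of these 2 falls thus rests on few UMIs. Klf2, a factor of egress counted among the 12, was lower in the day 20 library only, at 79.7 against 186 CPM, and stood at 139.6 against 131 in that of day 30. Of the immature and double-positive list 2 of 12 rose. Ccr9 rose by 0.35 (SE 0.09, edgeR adjusted p = 0.0045) and Tcf12, which encodes an E protein, by 0.34 (SE 0.10, edgeR adjusted p = 0.014). Of single genes of the other lists, Cd2, an adhesion molecule, fell by 0.83, Egr1, an early response gene of receptor signalling, by 0.61, Hmgb2 by 0.60 and Runx3, a factor of the CD8 lineage, by 0.58 (edgeR adjusted p = 0.048), although its level was not lower in the day 30 library, at 37.6 against 36.8 CPM. Hmgb2 was also higher in cycling cells, as given above. Of cycling cells 10.4% and 12.4% had both coreceptors in the day 20 and day 30 libraries, against 16.9% and 17.2% of other cells. The part of division in the fall of Hmgb2 was not tested. Of 6 early progenitor and Notch genes 0 passed in either direction. The calls of Ccr9, Tcf12, Runx3 and Egr1 were lost with thinned sums, those of Ccr9 and Tcf12 with DESeq2, and those of Runx3 and Egr1 with library totals and without barcodes of a second class. Without library as the block edgeR called 0 genes, with 129 at an unadjusted p under 0.05.

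The genes whose level followed that of Rag1 most closely were sought over 12 groups, the coreceptor states of each library with at least 20 cells, among 3001 genes with a mean of at least 50 CPM. They were Aqp11 (Pearson r = 0.993), Tubb2b (0.991), Pabpn1 (0.991), Hnrnpk (0.990) and Ccr9 (0.988). Among the members r was 0.974 for Satb1, 0.961 for Dntt, 0.944 for Bcl11b, 0.914 for Themis, 0.903 for Cd4, 0.666 for Cd8a and 0.569 for Cd8b1. The groups were themselves set by Cd4, Cd8a and Cd8b1 UMIs, so the r of these genes depends in part on the grouping and is not compared with the others. The groups share 4 libraries, and the contrast between pairs of libraries sets much of each value, so these are descriptions.

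Markers of the cells that support thymocytes were looked for in the same libraries. A list of 7 thymic epithelial genes summed to 33.8 to 66.4 CPM over all cells of a library, highest in that of day 5, and without Dll4 and Ccl25, which endothelial and other cells also make, to 2.97, 1.23, 3.40 and 0.901 CPM. Aire, which defines medullary thymic epithelium, had no UMI in any library. Foxn1, the master factor of thymic epithelium, had 34, 9, 6 and 2 UMIs over all cells, and Psmb11, of cortical thymic epithelium, had 2, 3, 7 and 3. These counts come from libraries of unlike size, with 1649, 322, 131 and 233 epithelial cells. In epithelial cells Foxn1 had 30, 7, 4 and 2 UMIs, or 3.01, 5.32, 7.54 and 2.23 CPM. Of the 7 Psmb11 UMIs of the day 20 library 6 lay in T lineage barcodes, as did 22 of the 44 of Tbata, another gene of the list. For Ccl25 it was 277 of 335. T lineage barcodes were 73.2% of the cells of that library, so nothing particular to them is read from these counts. Whether the T lineage cells of the day 20 and day 30 libraries lay within the thyroid or in tissue taken along with it cannot be told apart from these data.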

How the data were processed

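The authors deposited unnormalized UMI counts for each gene in each droplet of 4 libraries, made with a droplet-based 3' kit and CellRanger on mm10, with no filter on cells. A table of cells by the authors served here only as the list of cell barcodes. Cells with 200 to 10000 UMIs, at most 10% mitochondrial and 5% hemoglobin UMIs were kept, and the 6% with the highest Scrublet scores were removed (scanpy 1.11.5). Classes were ranges of marker UMIs: T lineage cells first, with 3 or more UMIs, otherwise the list with the most UMIs. Levels are CPM of summed UMIs with exact Poisson intervals, and shares have Clopper-Pearson intervals at 95%. Counts of 0 carry a limit of 3 UMIs. Cells were thinned to 1000 UMIs with a fixed seed.

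Sums per library and state were tested with edgeR 4.0.16 in R 4.3.3 (TMM, filterByExpr, quasi-likelihood F test, Benjamini-Hochberg adjustment, threshold 0.05), with library as block and 20 cells per state needed. Only 2 libraries met this. On simulated data with 200 changed genes the cycling fit found 93% of 4-fold changes and 48% of 2-fold changes and made 4 false calls over 9585 genes. The fit of coreceptor states found 92% and 55% and made 9 false calls over 9394 genes. The simulation used a dispersion of 0.02, and its 200 changed genes were fewer than the 1860 higher and 1639 lower of the cycling fit. These rates therefore need not hold for the data themselves. DESeq2 1.42.0, totals without TMM, no gene filter, no block, thinned sums and other cell filters were alternatives. Named genes were the members and, per list and direction, at most 3 genes that passed with the largest change. For likeness to Rag1 the 5 highest Pearson r of log2(CPM + 1) were named. The members and lists were chosen with earlier results of these data known. The design was written down for all 4 libraries. Positions are from GENCODE on GRCm38, which is the assembly of mm10, and the promoter windows are from RefSeq on GRCm38.p6.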

Additional observations from a re-analysis of the deposited data

Results flagged for a closer look

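Runx3 was called lower in cells with both coreceptors, but its log2 ratio of cells with both to cells with one only was -0.71 for day 20 and 0.031 for day 30. The direction differed between these libraries, and this difference was not tested.
Klf2 was also called lower in cells with both coreceptors, with a log2 ratio of -1.22 for day 20 and 0.090 for day 30, and this difference was likewise not tested.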

How the results depend on the processing

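The count of members at least 2-fold higher in both the day 20 and day 30 libraries stayed at 10 under all 8 alternatives. Of these, leaving out barcodes that were cells of 2 libraries was chosen after seeing the data. Of 320 levels under the alternatives 242 stayed within the interval of the level as reported. Without the upper UMI limit the ratio of day 30 to day 20 was 1.08 for Cd4, 1.03 for Satb1 and 1.08 for Themis, the other way from the ratios as reported. Co-detection gave 36 pairs without barcodes of a second class, 40 with doublets kept and 42 after thinning to 2000 UMIs, all chosen after seeing the data. The share with both coreceptors was 28.0% and 29.5% in the day 20 and day 30 libraries after thinning to 2000 UMIs, and 37.1% and 43.0% without thinning, by construction since more UMIs per cell were kept. Of the cycling comparison 849 genes were higher and 457 lower with DESeq2, 1213 and 890 with no library block, 883 and 675 with thinned sums over 6391 genes, and 1055 and 1046 with 10 cells per state, a setting chosen after seeing the data that adds the day 5 library. Cells of 5000 to 10000 UMIs, a setting also added then, gave 764 and 1092. More genes were lower than higher with totals without TMM, 1706 higher and 2221 lower, and with no gene filter, 1649 and 1901. For the coreceptor comparison DESeq2 gave 1 higher and 15 lower among 1552 genes with an adjusted p. Totals without TMM gave 178 and 218, no gene filter 30 and 354, and thinned sums 8 and 57. With no library block edgeR gave 0 and 0, with 129 genes at an unadjusted p under 0.05. Except where the setting itself tests fewer genes, cells or UMIs, the cause was not tested. Library was the block in the main fit, so the fit without it is the unpaired one. Of the 354 values of named genes in the cycling comparison 268 kept their call and direction, 73 lost the call, 5 gained it and 8 reversed. With cells of 5000 to 10000 UMIs Rag1 was at 1.00, Cd4 at 0.63, Bcl11b at 0.60, Satb1 at 0.29, Themis at 0.88, Ccr9 at 0.54 and Lig4 at 0.41. The other was Cd44 at 0.011 in cells with Cd8a or Cd8b1 UMIs, a setting chosen after seeing the data. Of 46 in the coreceptor comparison 26 kept the call and 20 lost it. Leaving out each library in turn was not run, because it leaves 1 library and no residual degrees of freedom. With 1 library per age, depth and age cannot be told apart.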
